A study of Homo sapiens with 40 samples.

Results

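The 9 genes described here belong to the WNT signalling pathway and were chosen by name, with earlier results of these data known. Counts of the 9 set beside shares over all genes are therefore descriptions. The genes are the ligands WNT3, WNT5A and WNT5B and the ligand amplifier RSPO3. With them are the inhibitor and feedback genes DKK1, AXIN2 and NKD1, and the nuclear factors LEF1 and SP5. All 9 were listed in both deposited tables, among 57939 genes in the total RNA table and 58336 in the polyA RNA table. They were followed in H1 cells of wild-type genotype, an established line of human embryonic stem cells. Cells of days 3 and 5 had been put through a mesoderm protocol in serum-containing medium, in which BMP4 (a TGF-beta family growth factor) was given for 1 day and bFGF (a fibroblast growth factor) for the 4 days after it. Day 0 cells were the undifferentiated line, kept in mTeSR1 on Matrigel. Serum aside, the additives named in the labels include no WNT protein, and all groups share this 1 line.

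Cells of each day were separated by the successive buffers of a commercial fractionation kit. The extracts were a membrane extract (ME), a soluble nuclear extract (SNE), a chromatin-bound nuclear extract freed with micrococcal nuclease (CBNE), the extract of the remaining pellet (PE) and a cytoplasmic extract (CE). INPUT libraries are read here as unfractionated RNA. Each of the 18 groups of day and extract had 2 total RNA libraries, 36 in all. A further 4 polyA libraries covered nucleus and cytoplasm of day 0, with 2 each. The labels do not say that the 2 libraries of a group came from separate cultures, so p-values measure only the spread between these libraries.

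WNT ligands are secreted lipid-modified proteins that bind Frizzled receptors. In the canonical branch, binding of a ligand such as WNT3 stops the destruction of beta-catenin, which then enters the nucleus and acts with TCF and LEF proteins on target genes. In the embryo this branch drives formation of the primitive streak and mesoderm, while WNT5A and WNT5B are best known for branches that do not use beta-catenin. Several targets feed back on the pathway: AXIN2 is a scaffold of the beta-catenin destruction complex, DKK1 is a secreted blocker of the LRP co-receptors, NKD1 is an inhibitor that binds Dishevelled, and SP5 is a zinc finger transcription factor. RSPO3 is a secreted protein that raises the amount of WNT receptor at the cell surface.

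Of the 9 genes, 7 had at least 1 entry in the RefSeq promoter table (GRCh38.p14), 9 promoters in all. In the 250 bases before each start, the core letters that TCF and LEF proteins recognise, CTTTGA or CTTTGT, were counted on both strands, and no match overlapped another. SP5 held 4 matches and DKK1 held 3, and the other 7 promoters, those of WNT3, WNT5A, WNT5B, RSPO3 and LEF1, held 0. Of 35116 promoters in the table, 22.8% held at least 1 match, 0.584% at least 3 and 0.0570% at least 4. The SP5 and DKK1 windows are shown because these genes had the largest increases of the 9 by day 5 in INPUT, described below. Capitals mark the matches, which read TCAAAG where the motif lies on the other strand. A match is a run of letters and no measurement of binding.
SP5, chr2:170715087-170715336, + strand: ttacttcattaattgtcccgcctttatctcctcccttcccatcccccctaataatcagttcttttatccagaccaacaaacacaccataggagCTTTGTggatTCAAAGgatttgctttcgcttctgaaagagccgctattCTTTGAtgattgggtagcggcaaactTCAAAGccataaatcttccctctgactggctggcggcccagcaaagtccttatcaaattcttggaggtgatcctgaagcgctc
DKK1, chr10:52314031-52314280, + strand: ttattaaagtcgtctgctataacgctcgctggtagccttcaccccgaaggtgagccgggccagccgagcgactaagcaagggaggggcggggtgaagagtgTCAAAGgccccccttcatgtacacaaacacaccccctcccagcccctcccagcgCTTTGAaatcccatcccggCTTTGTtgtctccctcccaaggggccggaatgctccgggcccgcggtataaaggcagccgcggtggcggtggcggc

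Values are in TPM, a gene's share of its library after division by gene length. In the total RNA table the length divided by was that of the whole gene, introns included: multiplied by gene span, 98.6% to 98.9% of values of up to 50 reads came within 0.05 of a whole number of reads, against 15.1% to 27.9% with exon length. A total RNA value is therefore a density over the gene span, and for a gene that is mostly intron it lies far below the density over its exons. The steps gave 8604862 to 28535284 reads per INPUT, CE, ME and SNE library (24 libraries), 474013 to 7862412 in PE and 380096 to 1835687 in CBNE. In polyA RNA the values followed exon length, and libraries held 14449217 to 17270359 reads. Mitochondrial RNA took 46.6% to 61.4% of the summed TPM in ME, 21.4% to 28.9% in SNE, 20.3% to 22.0% in INPUT and 1.40% to 1.86% in CE.

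The labelled stages were checked in INPUT. Of 4 primitive streak markers and 4 lateral mesoderm markers, all stood higher in both day 5 libraries than in both day 0 libraries. The summed level of the primitive streak list ranged from 5.40 to 6.76 TPM on day 0, from 50.8 to 65.1 on day 3 and from 530.0 to 573.9 on day 5. Of 4 pluripotency markers, 3 stood lower on day 5, and SOX2 was listed at 0 in all 24 INPUT, CE, ME and SNE libraries. It was at 0 in the 4 polyA libraries too. How reads in overlapping genes were assigned is not given, so this 0 is not read as absence of SOX2 RNA. The pluripotency sums were 1653 to 1656 TPM on day 0, 1220.0 to 1256 on day 3 and 997.9 to 1026 on day 5, those of lateral mesoderm 1.47 to 2.04, 29.3 to 33.8 and 771.2 to 814.2 on these days, and those of 3 neuroectoderm markers 1.88 to 3.00, 0.739 to 0.879 and 0.432 to 1.89. All 4 amnion or trophoblast markers also stood higher on day 5, with sums of 8.47 to 8.49 TPM on day 0, 109.2 to 117.2 on day 3 and 515.4 to 525.9 on day 5 (CGA at 0 on day 0), and so did all 4 endoderm markers, one of which, CER1, is itself a WNT inhibitor. The endoderm sums were 3.79 to 5.09 TPM on day 0, 34.7 to 38.3 on day 3 and 947.5 to 975.0 on day 5, with FOXA2 at 0 on days 0 and 3. A single gene carried most of the pluripotency, lateral mesoderm and endoderm sums of day 5: LIN28A (mean 924.6 TPM), HAND1 (787.3) and CER1 (904.1). GATA4, PDGFRA and TBX20 had means of 0.891, 3.27 and 1.22 TPM on that day. NANOG fell from a mean of 224.0 TPM on day 0 to 51.2 TPM on day 5. The part of these cell types in the changes below was not tested, and in bulk RNA a smaller number of cells of a type cannot be told apart from less RNA per cell.

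By day 5 of differentiation the INPUT means of 8 of the 9 genes stood above those of day 0, 7 by enough for a call. SP5 and DKK1 had the largest differences. AXIN2 fell by day 3 and was the only one of the 9 whose day 5 mean was below its day 0 mean. A call needed a difference of at least 1 in mean log2(TPM + 1) and a limma p, adjusted by Benjamini and Hochberg's method, under 0.05 in the fit of those 24 libraries. Against day 0, 7 of the 9 genes were called higher on day 5 and 0 lower, where 7.63% of the 23238 genes tested were called higher and 9.32% lower (16.9% in all). At an unadjusted p under 0.05, 8 were higher and 1 lower. A fit on recovered reads (limma's voom, which uses no pseudocount of 1 TPM) called 8 higher and 0 lower.

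Among the ligands, WNT5A, on chromosome 3 (55465715 to 55490539, GRCh38, ENSG00000114251), was the most abundant per span. Its INPUT libraries stood at 6.77 and 6.26 TPM on day 0, 16.1 and 15.3 TPM on day 3, and 85.4 and 85.3 TPM on day 5. It rose at both steps, with log2 differences of 1.15 ± 0.09 between days 3 and 0 (SE, adjusted p = 2.09e-07) and 2.37 ± 0.09 between days 5 and 3 (adjusted p = 1.94e-10). The libraries of the 3 days did not overlap. With all 36 libraries in the fit the day 3 call against day 0 is lost (adjusted p = 0.0756).

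WNT5B (chromosome 12, 1529891 to 1647243, ENSG00000111186) stood at 1.25 and 1.33 TPM on day 0, 3.82 and 4.37 TPM on day 3, and 4.17 and 4.54 TPM on day 5. It was higher on day 3 than on day 0 (1.15 ± 0.08, limma adjusted p = 5.97e-08). Between days 5 and 3 the libraries overlapped, and the difference was 0.07 ± 0.08 (adjusted p = 0.568). FBXL14, on the other strand, covers 28173 bases of the WNT5B span. It stood at 3.99 to 24.9 TPM in the 24 INPUT, CE, ME and SNE libraries and at 0 in the 4 polyA libraries. Whether reads were counted by strand is not given in the sources used here. Across the table, 85.3% of protein-coding genes lying only inside a gene on the other strand were above 0, against 89.3% of those without overlap. Which reads entered the WNT5B value was not tested, in total RNA or in polyA RNA.

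WNT3 (chromosome 17, 46762506 to 46833154, ENSG00000108379) stood at 0.130 and 0.195 TPM on day 0, 0.312 and 0.347 TPM on day 3, and 0.858 and 0.873 TPM on day 5. The days did not overlap, yet all values lie under the pseudocount, and the day 5 difference from day 0 was 0.68 ± 0.11 (adjusted p = 0.000153), short of a call. Summed reads put day 5 at 5.28 times day 0, with a 95% interval of 3.48 to 8.24 that covers counting error only, and the fit on reads called it (2.39 ± 0.34, adjusted p = 6.83e-07).

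RSPO3 (chromosome 6, 127118604 to 127197765, ENSG00000146374) was barely detected before day 5, with 1 and 6 reads on day 0 and 6 and 9 reads on day 3. Its levels were 0.0106 and 0.0580 TPM on day 0, 0.0836 and 0.111 TPM on day 3, and 1.56 and 1.69 TPM on day 5. It rose on day 5 against day 0 (1.34 ± 0.10, adjusted p = 2.54e-08). On the scale with the pseudocount this reads as a 2.54-fold change, while summed reads gave a ratio of 45.9 (95% counting interval 21.9 to 115.4).

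Of the inhibitors and feedback genes, DKK1 (chromosome 10, 52314296 to 52318042, ENSG00000107984) rose mainly after day 3. It stood at 0.669 and 0.817 TPM on day 0, 1.77 and 2.09 TPM on day 3, and 45.5 and 43.5 TPM on day 5. Against day 0 the day 3 difference of 0.75 ± 0.32 missed the threshold (adjusted p = 0.0773), on 14 summed reads in day 3 and 7 in day 0. Against day 3 it rose by 3.96 ± 0.32 (adjusted p = 2.62e-07).

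AXIN2 (chromosome 17, 65528563 to 65561647, ENSG00000168646) went the other way. It stood at 14.5 and 15.9 TPM on day 0, 4.80 and 4.41 TPM on day 3, and 8.43 and 8.37 TPM on day 5. It was called lower on day 3 than on day 0 (-1.53 ± 0.08, adjusted p = 1.86e-09), and its day 5 levels lay between those of the other days without overlap. The day 5 differences from day 0 (-0.79 ± 0.08, adjusted p = 1.16e-06) and from day 3 (0.75 ± 0.08, adjusted p = 4.46e-06) were under the size needed for a call. AC004805.1 covers 71.2% of the AXIN2 span on the same strand. Across the table only 24 of 529 protein-coding genes lying inside a same-strand gene (4.54%) were above 0, against 85.3% of those inside a gene on the other strand. Which reads entered the AXIN2 value was not tested.

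NKD1 (chromosome 16, 50548330 to 50649249, ENSG00000140807) stood at 3.26 and 3.17 TPM on day 0, 3.30 and 3.51 TPM on day 3, and 13.0 and 12.7 TPM on day 5. The day 3 difference from day 0 was 0.06 ± 0.08 (adjusted p = 0.584), with an increase of 1.65 ± 0.08 from there to day 5 (adjusted p = 1.60e-09). NKD1, RSPO3, DKK1 and LEF1 were called between days 5 and 3 and not between days 3 and 0, and WNT5B the other way round. On reads RSPO3 (1.70, adjusted p = 0.0261) and LEF1 were called between days 3 and 0 too.

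LEF1 (chromosome 4, 108047545 to 108168956, ENSG00000138795), a DNA-binding partner of beta-catenin, stood at 0.833 and 0.907 TPM on day 0, 1.84 and 1.87 TPM on day 3, and 8.83 and 9.91 TPM on day 5. It rose on day 5 against day 0 by 2.47 ± 0.10 (adjusted p = 7.78e-11). The day 3 difference from day 0, 0.61 ± 0.10 (adjusted p = 0.000235), was not called, and on reads it was (1.09 ± 0.16, adjusted p = 1.75e-06).

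SP5 (chromosome 2, 170715351 to 170718078, ENSG00000204335) had the largest rise of the 9. It stood at 0.919 and 1.40 TPM on day 0, 20.2 and 20.5 TPM on day 3, and 127.6 and 121.6 TPM on day 5. The day 3 difference from day 0 was 3.31 ± 0.34 (adjusted p = 2.14e-06) and that of day 5 from day 0 was 5.87 ± 0.34 (adjusted p = 2.80e-09). With all 36 libraries in the fit the SE is 1.20, and the calls of day 3 against day 0 (adjusted p = 0.0726) and of day 5 against day 3 (adjusted p = 0.236) are lost. Day 0 rested on 8 summed reads, and the ratio of day 5 to day 0 in reads was 106.5 with a 95% counting interval of 53.7 to 247.8.

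**Figure D1:**
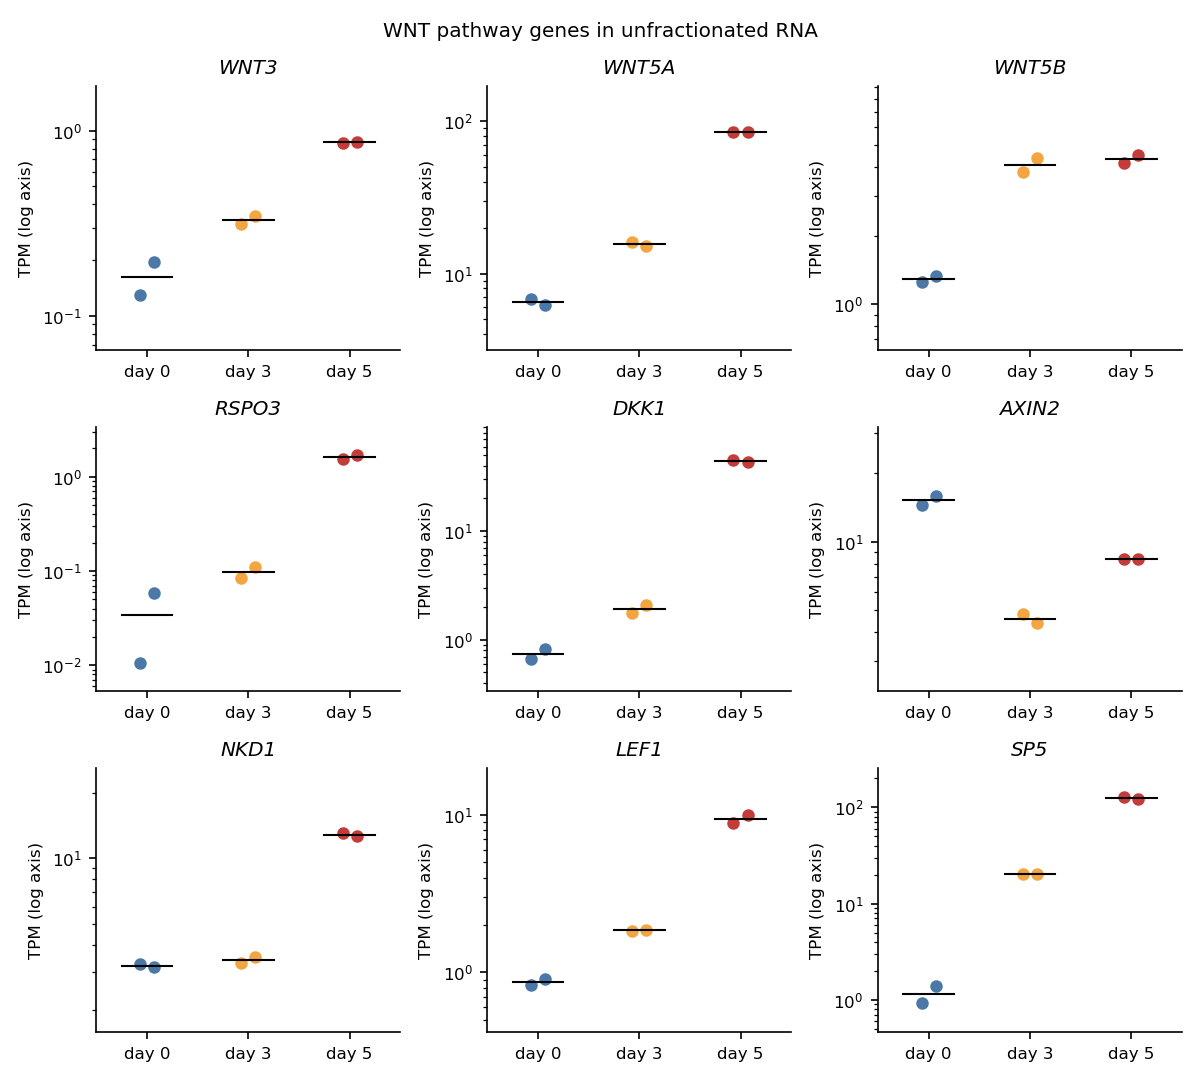
TPM in unfractionated (INPUT) total RNA of each of the 9 genes on days 0, 3 and 5, on a log axis with its own range for each gene. Points are libraries and bars are means of 2; AXIN2 falls to 4.80 and 4.41 TPM on day 3, WNT5B overlaps between days 3 and 5, and DKK1, NKD1 and RSPO3 rise mainly between days 3 and 5.

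By interval, day 3 against day 0 called 3 of the 9 genes higher (WNT5A, WNT5B and SP5) and AXIN2 lower, where 5.17% of all genes tested were called higher and 5.34% lower (10.5% in all). Day 5 against day 3 called 6 higher (WNT5A, RSPO3, DKK1, NKD1, LEF1 and SP5) and 0 lower, where 3.48% were called higher and 3.43% lower (6.91% in all). At an unadjusted p under 0.05 that step had 8 higher and 0 lower, and the fit on reads called 7 higher and 0 lower. The median difference of the 9 genes was 0.61 between days 3 and 0 and 1.65 between days 5 and 3, beside medians of -0.01 and -0.06 over all genes tested.

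The rest of the pathway was followed in 8 lists with 106 genes, of which 95 were tested. In INPUT, 36 of the 95 were called higher and 12 lower on day 5 against day 0, where 7.63% of all genes tested were called higher and 9.32% lower. With a common median 40 were higher and 11 lower. The list counts below are read beside those shares, as descriptions, since the lists too were chosen with earlier results of these data known. Of 15 mesoderm genes listed as WNT targets, 12 rose and 0 fell, with a median of 3.03 beside -0.09 over all genes. The list shares genes with the primitive streak markers above, MIXL1 and TBXT among them. MSX2, a homeobox factor, stood at 2.63 and 1.32 TPM on day 0, 128.1 and 141.4 TPM on day 3 and 309.3 and 309.5 TPM on day 5. MIXL1, a homeobox factor of the primitive streak, stood at 3.89 and 4.01 TPM on day 0, 35.0 and 23.9 TPM on day 3 and 332.6 and 306.7 TPM on day 5. On day 5 against day 0 MSX2 rose by 6.74 ± 0.16 and MIXL1 by 6.02 ± 0.19.

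Among the other WNT ligands 9 of 16 were tested, and 5 rose and 0 fell on day 5 against day 0. WNT6 gained most of its level after day 3, at 2.45 and 2.58 TPM on day 3 and 44.4 and 49.7 TPM on day 5 (3.77 ± 0.09). WLS, the carrier that brings WNT proteins to the cell surface, stood at 0.515 and 0.455 TPM on day 0, 14.5 and 17.8 TPM on day 3 and 95.2 and 101.8 TPM on day 5. Its difference of day 5 from day 0 was 6.07 ± 0.09.

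Secreted or surface inhibitors moved both ways, with 5 of 13 higher and 5 lower on day 5 against day 0. CER1, a secreted antagonist of WNT, BMP and Nodal proteins, stood at 2.51 and 4.60 TPM on day 0, 31.30 and 35.99 TPM on day 3 and 915.1 and 893.1 TPM on day 5. SFRP2, a secreted Frizzled-like protein, stood at 386.6 and 372.8 TPM on day 0, 186.8 and 188.4 TPM on day 3 and 74.5 and 67.3 TPM on day 5. The differences of day 5 from day 0 were 7.67 ± 0.27 for CER1 and -2.41 ± 0.14 for SFRP2, with SFRP5 also lower (-2.01 ± 0.26). Of 5 ligand processing and secretion genes, WLS among them, 2 were higher and 1 lower.

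Of 16 receptors and co-receptors, 6 were called higher and 3 lower on day 5 against day 0, with the largest falls in FZD9 (-2.44 ± 0.30) and FZD7 (-1.95 ± 0.10), both Frizzled receptors. R-spondins, their receptors and ligases had 2 of 7 higher and 1 lower, and nuclear partners 3 of 11 higher and 1 lower. Of 19 cytoplasmic transducers 1 was called higher and 1 lower (3 and 1 with a common median), near the shares over all genes.

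**Figure D2:**
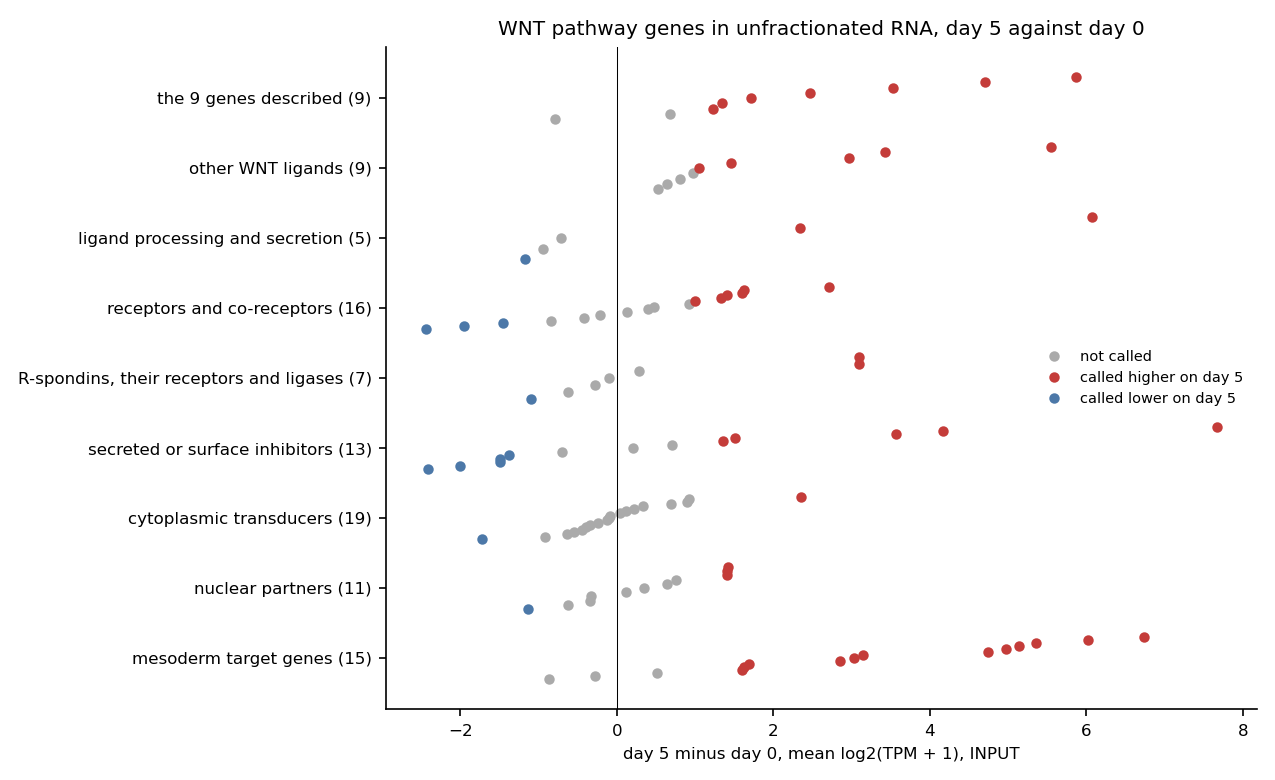
Difference of day 5 minus day 0 in mean log2(TPM + 1) of INPUT, with a point for each tested gene of the 9 described and of 8 pathway lists (number tested in brackets). Coloured points passed the call; 12 of 15 mesoderm target genes lie among the higher ones, while 17 of 19 cytoplasmic transducers were not called.

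The density of RNA by extract differed between the 9 genes. On day 5, on the deposited scale, SP5 and DKK1 were denser in CE than in SNE, and LEF1 and WNT5B denser in SNE. Of these 4, only WNT5B changed sign under another scaling on that day, as given below. For SNE against CE, 2 of the 9 genes were called higher and 1 lower on day 0, 4 higher and 1 lower on day 3, and 2 higher and 2 lower on day 5. Over all genes tested, 34.5%, 35.2% and 40.4% were called higher on days 0, 3 and 5 and 11.4%, 9.23% and 11.1% lower (45.9%, 44.4% and 51.5% in all). Read against these shares, counts of 1 to 4 are no result about the 9 genes as a group. The median difference over all genes was 0.61, 0.62 and 0.75 on the 3 days, so that the differences below stand on a scale where most genes are denser in SNE.

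That scale is not settled by the data. With each library shifted to a common median, the median difference over all genes became -0.26, -0.50 and -0.56 on days 0, 3 and 5, and 0 of the 9 were higher and 2 lower on day 0, 0 and 4 on day 3, and 1 and 5 on day 5. Over all genes the calls were then 3110 higher and 5802 lower on day 0, 2685 and 6927 on day 3, and 3458 and 8175 on day 5, against 8023 and 2652, 8169 and 2145, and 9390 and 2568 on the deposited scale. The signs of AXIN2 and RSPO3 flipped on all 3 days, that of WNT5A on days 0 and 5, and those of NKD1 and WNT5B on day 5. The LEF1 difference was above 0, and those of SP5, DKK1 and WNT3 below 0, on all 3 days in every alternative run.

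On day 5 SP5 stood at 29.5 and 27.3 TPM in SNE, against 231.9 and 226.5 TPM in CE. It was lower in SNE on all 3 days, by -1.47 ± 0.34 on day 0 (adjusted p = 0.00124), -2.13 ± 0.34 on day 3 (adjusted p = 4.95e-05) and -2.97 ± 0.34 on day 5 (adjusted p = 1.40e-06). With all 36 libraries in the fit the calls of day 0 (adjusted p = 0.334) and day 3 (adjusted p = 0.157) are lost. In reads the ratio of SNE to CE was 0.112 on day 0 (95% counting interval 0.00267 to 0.722, on 1 SNE read), 0.223 on day 3 (0.143 to 0.333) and 0.124 on day 5 (0.0987 to 0.154).

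DKK1 stood at 9.08 and 9.20 TPM in SNE on day 5, against 75.9 and 75.5 TPM in CE. The difference was -2.92 ± 0.32 (adjusted p = 8.68e-07). On day 3 it stood at 3.54 and 1.06 TPM in SNE, against 4.78 and 3.96 TPM in CE, a difference of -0.81 ± 0.32 (adjusted p = 0.0347) that was not called, but was without the first SNE library of that day (-1.38). SP5 and DKK1 are the shortest of the 9 genes, with spans of 2.73 and 3.75 kb.

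LEF1, the longest of the 9 at 121.4 kb, stood at 34.1 and 38.8 TPM in SNE on day 5, against 5.76 and 5.72 TPM in CE. It was higher in SNE on all 3 days, by 1.48 ± 0.10 on day 0 (adjusted p = 5.49e-09), 1.24 ± 0.10 on day 3 (adjusted p = 4.48e-08) and 2.47 ± 0.10 on day 5 (adjusted p = 1.13e-11). In reads the ratio of SNE to CE was 6.01 on day 0 (5.05 to 7.19), 3.94 on day 3 (3.39 to 4.59) and 6.35 on day 5 (6.01 to 6.70).

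WNT5B, with a span of 117.4 kb, stood at 9.72 and 11.3 TPM in SNE on day 5, against 3.86 and 4.31 TPM in CE. It was called higher in SNE on all 3 days on the deposited scale, by 1.43 ± 0.08 on day 0, 1.45 ± 0.08 on day 3 and 1.18 ± 0.08 on day 5. NKD1 (100.9 kb) stood at 27.7 and 30.0 TPM in SNE on day 5, against 14.8 and 14.8 TPM in CE, and was called on day 3 (1.19 ± 0.08, adjusted p = 3.62e-09), with differences of 0.94 and 0.92 on days 0 and 5. In both genes the SNE libraries lay above the CE libraries on every day, on the deposited scale.

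WNT5A (24.8 kb) stood at 99.9 and 102.9 TPM in SNE on day 5, against 93.8 and 96.6 TPM in CE, a difference of 0.09 ± 0.09 (adjusted p = 0.411). On day 3 it stood at 24.7 and 24.2 TPM in SNE, against 9.77 and 11.7 TPM in CE, and was called higher (1.12 ± 0.09, adjusted p = 4.81e-08), a call that is lost without the first CE library of that day (0.9997). AXIN2 (33.1 kb) stood at 11.4 and 11.1 TPM in SNE on day 5, against 10.3 and 10.6 TPM in CE, and was called on none of the 3 days by limma (differences 0.17, 0.58 and 0.10).

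RSPO3 and WNT3 lie at low levels, so that the pseudocount holds their differences near 0. RSPO3 (79.2 kb) stood at 2.99 and 3.58 TPM in SNE on day 5, against 1.86 and 1.58 TPM in CE (0.65 ± 0.10). WNT3 (70.6 kb) stood at 0.482 and 0.488 TPM in SNE on day 5, against 1.29 and 1.63 TPM in CE (-0.72 ± 0.11, adjusted p = 4.08e-05, not called), and in reads its ratio of SNE to CE was 0.330 (0.229 to 0.465).

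**Figure D3:**
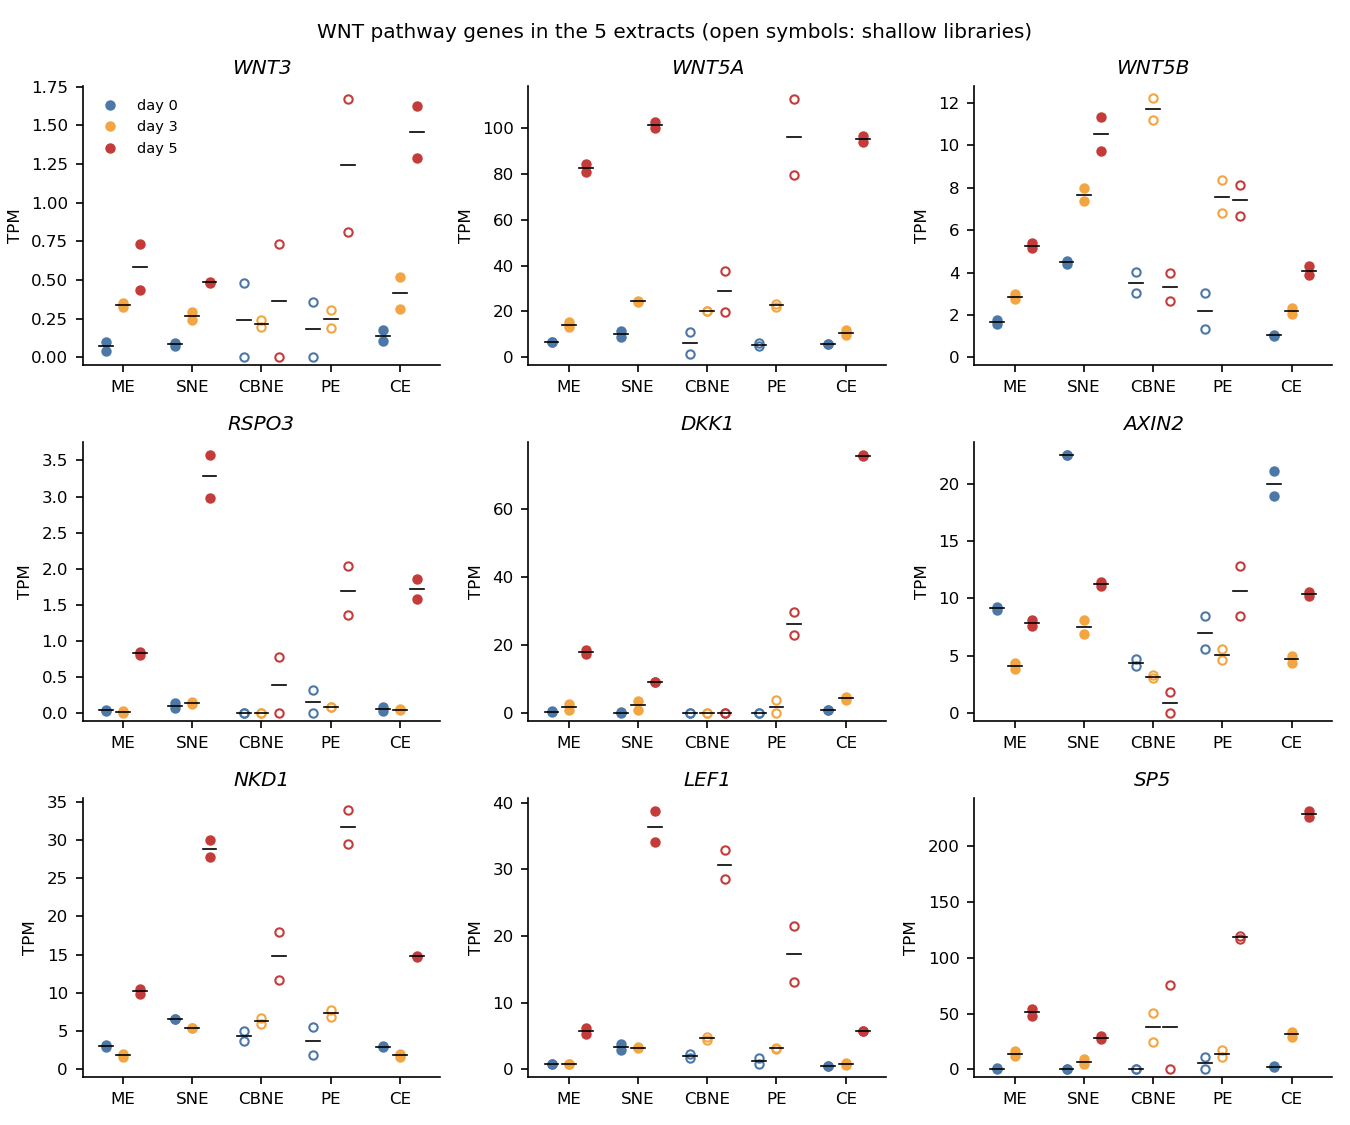
TPM of each of the 9 genes in ME, SNE, CBNE, PE and CE, by day; points are libraries, bars are means of 2, and open symbols mark extracts with shallow libraries. On day 5 SP5 and DKK1 are highest in CE, LEF1 is highest in SNE and CBNE, and WNT5A lies between 79.6 and 112.8 TPM in ME, SNE, PE and CE.

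The SNE to CE difference of the 9 genes followed gene span. On days 0, 3 and 5, Pearson's r between the difference and the log of the span was 0.86, 0.83 and 0.92 over 9 genes, and Spearman's rho was 0.85, 0.83 and 0.95. These values describe 9 genes that share the same libraries. Protein-coding genes as a whole were ordered the same way, with day 5 medians of -1.20 for spans under 5 kb (1456 genes), -0.26 for 5 to 20 kb, 0.62 for 20 to 50 kb, 1.36 for 50 to 100 kb and 2.21 over 100 kb (3022 genes). A total RNA value is a density over the span, and whether reads in introns were counted is not given in the sources used here.

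Set against genes of like span, LEF1 lay between the quartiles of its class on all 3 days. WNT5A and AXIN2 did so too in the class of 20 to 50 kb. On day 5 SP5 (-2.97) and DKK1 (-2.92) lay below the lower quartile of their class, -2.23. On day 3 SP5 (-2.13) lay below it (-1.85) and DKK1 inside, and on day 0 both lay inside. WNT3 and RSPO3 lay below the lower quartile of genes of 50 to 100 kb on all 3 days (0.47, 0.57 and 0.71). On days 0 and 3 both genes lay under the pseudocount of 1 TPM in CE and SNE. Their day 3 means in CE and SNE were 0.0506 and 0.140 TPM for RSPO3 and 0.415 and 0.267 TPM for WNT3. At such levels the pseudocount holds a difference near 0, so those positions say little about these genes. NKD1 lay below the lower quartile of genes over 100 kb on days 0 and 5 (1.06 and 1.44), and WNT5B on day 5. At 100.9 kb, NKD1 stands at the lower edge of that class. Its differences on these days, 0.94 and 0.92, lay between the quartiles of genes of 50 to 100 kb. Those quartiles were 0.47 and 1.58 on day 0 and 0.71 and 2.02 on day 5. These positions are descriptions without a test.

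**Figure D4:**
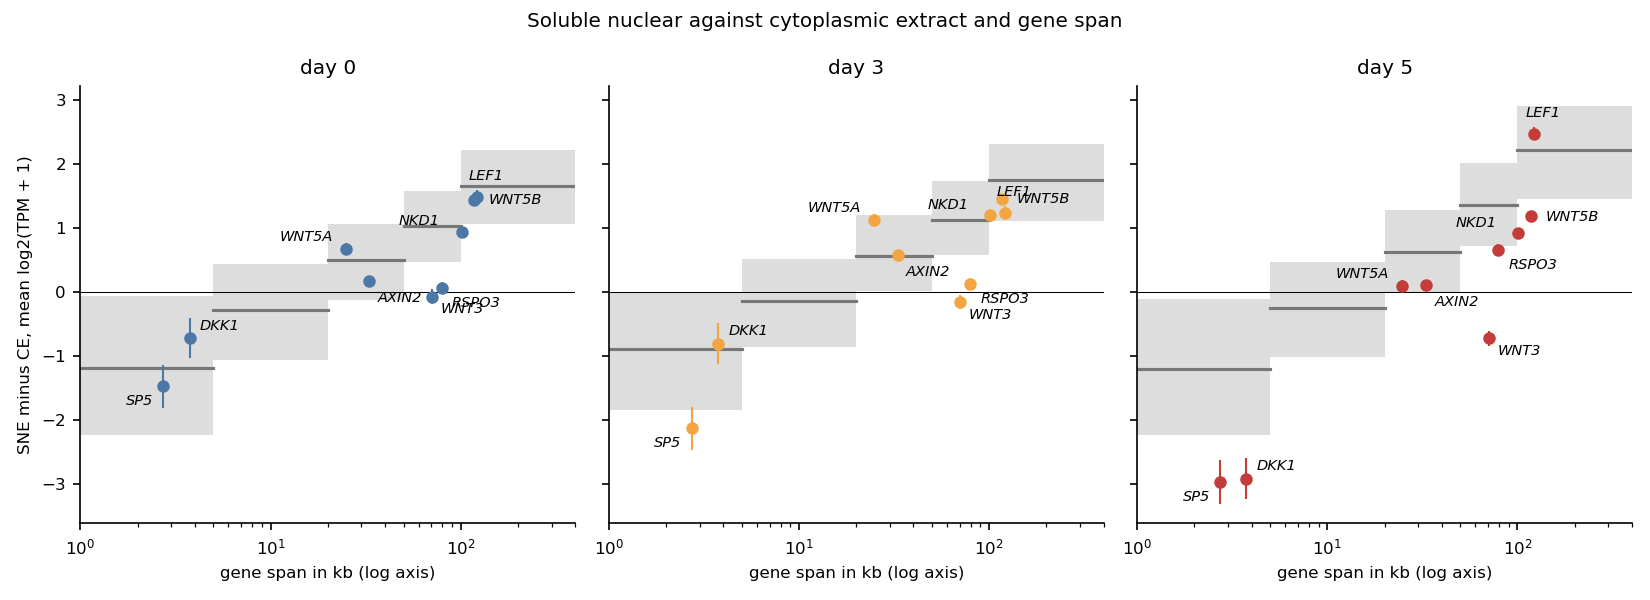
SNE minus CE difference in mean log2(TPM + 1) against gene span on a log axis, on days 0, 3 and 5. Points are the 9 genes with standard errors; grey bands and lines are the quartiles and medians of protein-coding genes in 5 classes of span, the outer 2 drawn to the edges of the axis. SP5 and DKK1 lie lowest on day 5 and LEF1 highest.

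The test of whether the SNE to CE difference changed between days called 0 genes of the 9 between days 3 and 0 (3 higher and 0 lower at an unadjusted p under 0.05, and 0 by the fit on reads), where 5.19% of all genes were called higher and 2.37% lower (7.56% in all). Between days 5 and 0 it called DKK1 (-2.20 ± 0.45, adjusted p = 0.00127) and SP5 (-1.50 ± 0.48, adjusted p = 0.0220) lower, where 8.71% of genes were called higher and 2.7% lower (11.4% in all). The SP5 call is lost with all 36 libraries (adjusted p = 0.738) and with totals without mitochondrial and structured RNA (adjusted p = 0.191), as is the DKK1 call with a pseudocount of 0.1 (-0.81). Neither was called on reads, with differences of -1.31 for DKK1 and -0.57 for SP5, and the SP5 difference was 0.35 with a pseudocount of 0.1. The SP5 call is also lost without the second CE (-1.42) or first SNE library (-1.21) of day 0 or the first CE (-1.48) or second SNE library (-1.44) of day 5. Day 0 held 1 SNE read of each gene.

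Between days 5 and 3 the test called LEF1 higher (1.23 ± 0.15, adjusted p = 4.13e-05) and WNT5A (-1.03 ± 0.13, adjusted p = 8.05e-05) and DKK1 (-2.11 ± 0.45, adjusted p = 0.00316) lower, where 3.64% of genes were called higher and 1.32% lower (4.96% in all). With a common median the change test gave 671 higher and 1084 lower genes between days 3 and 0, against 1206 and 551 on the deposited scale, 692 and 1801 between days 5 and 0, against 2025 and 628, and 547 and 550 between days 5 and 3, against 846 and 306. The WNT5A call is lost without the first CE library of day 3 (-0.91) and with all 36 libraries (adjusted p = 0.506). The DKK1 call is lost with all 36 libraries (adjusted p = 0.0766) and with a pseudocount of 0.1 (adjusted p = 0.196), and the LEF1 call with that pseudocount (0.74). On reads WNT5A (-1.09 ± 0.12) and DKK1 (-1.96 ± 0.54) were called and LEF1 (0.66 ± 0.18) was not. For WNT5A the ratio of SNE to CE in reads was 1.72, 2.25 and 1.06 on days 0, 3 and 5. On day 5 the SNE, CBNE and PE libraries and the second ME library carry library numbers from a later block than the INPUT and CE libraries, so that on that day the block and the difference between SNE and CE cannot be told apart. The 2 ME libraries of day 5, which lie on either side of it, stood at 53.9 and 48.0 TPM for SP5, 18.6 and 17.3 for DKK1, 5.37 and 6.26 for LEF1 and 84.5 and 81.0 for WNT5A.

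Among the other pathway genes, 30 of 95 were called higher in SNE than in CE on day 5 and 20 lower, where 40.4% of all genes were called higher and 11.1% lower. With a common median 14 were higher and 46 lower, so that the direction for the lists depends on the scaling. Of the 15 mesoderm targets 1 was called higher and 10 lower (0 and 14 with a common median), with MSGN1, a factor of the presomitic mesoderm, at 2.95 and 2.99 TPM in SNE, against 82.7 and 97.2 TPM in CE (-4.51 ± 0.29). TCF7L2, a TCF family factor, stood at 219.3 and 254.4 TPM in SNE, against 14.8 and 15.2 TPM in CE (3.89 ± 0.08). ROR1, a receptor of WNT5A, stood at 52.5 and 59.7 TPM in SNE, against 3.79 and 3.72 TPM in CE (3.58 ± 0.08). DKK4, a secreted inhibitor related to DKK1, was lower in SNE (-2.95 ± 0.28). These 4 genes were called in the same direction with a common median. The lists were not set against genes of like span, by which the difference was ordered over protein-coding genes, as described above. R-spondins, their receptors and ligases had 6 of 7 higher and 0 lower, and 3 and 0 with a common median.

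In the membrane extract SP5 was called lower than in CE on days 0, 3 and 5. On day 5 it had 53.9 and 48.0 TPM in ME on day 5, against 231.9 and 226.5 TPM in CE (-2.15 ± 0.34, adjusted p = 9.61e-05). DKK1 was called lower on day 5, with 18.6 and 17.3 TPM in ME, against 75.9 and 75.5 TPM in CE (-2.02 ± 0.32, adjusted p = 9.89e-05), and AXIN2 on day 0, with 9.02 and 9.23 TPM in ME, against 18.9 and 21.1 TPM in CE (-1.05 ± 0.08, adjusted p = 3.53e-08). In all, 2, 1 and 2 of the 9 genes were called lower on days 0, 3 and 5, where 20.4%, 10.8% and 10.3% of genes were called lower, 2.13%, 1.72% and 2.82% higher and 22.5%, 12.5% and 13.2% in all. None of the 9 was called higher by limma on any day, a count of 0 (2, 2 and 1 at an unadjusted p under 0.05, and 0 by the fit on reads). With totals taken anew without mitochondrial and structured RNA, the AXIN2 difference of day 0 was 0.19 and the 9 genes had 3 higher and 0 lower on day 0, 2 and 0 on day 3, and 1 and 2 on day 5. All 3 SP5 calls are lost with all 36 libraries in the fit (adjusted p = 0.583, 0.720 and 0.271 on days 0, 3 and 5), and those of days 3 and 5 with a pseudocount of 0.1 (adjusted p = 0.342 and 0.0671). The SP5 calls of days 0 and 3 and the AXIN2 call are also lost when 1 library is left out: SP5 without the first CE or first ME library of day 0 (-1.08 and -0.56), SP5 without the first CE or second ME library of day 3 (-1.01 and -0.92), and AXIN2 without the second CE library of day 0 (-0.97). Over all genes the calls were 6942 higher and 926 lower on day 0, 5073 and 491 on day 3, and 5144 and 570 on day 5 with the new totals, against 494 and 4730, 400 and 2502, and 656 and 2404 on the deposited scale. The median over all genes was 0.58, 0.46 and 0.47 on days 0, 3 and 5 with the new totals, against -0.15, 0 and 0 as deposited. With a common median the calls of day 0 were 987 higher and 3775 lower. The WNT5A libraries of ME, at 84.5 and 81.0 TPM on day 5, lay below those of CE by -0.20 ± 0.09 (adjusted p = 0.0992).

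The pellet and chromatin-bound extracts were limited by depth. A single SP5 read equalled 5.06 to 22.7 TPM in CBNE and 1.24 to 11.3 TPM in PE, and a single LEF1 read 0.114 to 0.509 and 0.0278 to 0.254 TPM. LEF1 was called above CE in both on day 5, when it stood at 28.5 and 32.8 TPM in CBNE on 56 and 77 reads, and at 13.1 and 21.5 TPM in PE on 297 and 774 reads, against 5.76 and 5.72 TPM in CE. The differences from CE were 2.23 ± 0.19 in CBNE (adjusted p = 2.67e-09) and 1.40 ± 0.19 in PE (adjusted p = 4.36e-06), and with a common median 3.14 in CBNE and 0.51 in PE, where the call is lost.

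In CBNE against CE, 1 of the 9 genes was called higher and 1 lower on day 0, 3 and 1 on day 3, and 1 and 5 on day 5, where 14.9%, 25.9% and 17.6% of 24735 genes were called higher, 27.8%, 18.3% and 26.6% lower and 42.7%, 44.2% and 44.2% in all. Shifted to a common median the 9 genes had 3 higher and 1 lower on days 0 and 3 and 1 and 3 on day 5, with 6843 higher and 4283 lower of all genes on day 0 and 7661 and 4020 on day 5, against 3683 and 6875, and 4350 and 6580, on the deposited scale. With totals without mitochondrial and structured RNA these calls were 4962 and 5632 on day 0 and 5859 and 5325 on day 5. The WNT5B call of day 0 is lost without the first CBNE library (0.99). WNT5B stood at 11.2 and 12.2 TPM in CBNE on day 3, against 2.05 and 2.31 TPM in CE (2.00 ± 0.20, adjusted p = 1.65e-08), and at 2.64 and 3.97 TPM on day 5, against 3.86 and 4.31 TPM (-0.26 ± 0.20, adjusted p = 0.300). WNT5A was lower in CBNE on day 5, at 19.9 and 37.6 TPM on 8 and 18 reads, against 93.8 and 96.6 TPM in CE (-1.76 ± 0.42, adjusted p = 0.00120), a call lost with a common median (-0.85).

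DKK1 had 0 reads in all 6 CBNE libraries. On day 5, 3 reads would equal 41.5 to 49.5 TPM per library, with a mean of 45.5 TPM. In CE, DKK1 stood at 75.9 and 75.5 TPM, on average 1.66 times that mean on the deposited scale. With a common median the median difference of CBNE from CE over all genes moved from -0.17 to 0.74 on day 5. The 1.66 was not worked out on that scale. On day 3 the call of DKK1 as lower rests on 0 reads where 3 reads equal 11.1 to 13.5 TPM and the CE level was 4.78 and 3.96 TPM, so that a difference was not detectable at this depth. AXIN2 had 1 and 0 reads and SP5 0 and 4 reads in the CBNE libraries of day 5, and the SP5 call is lost without the first of them (-1.58, against -4.71 with both). RSPO3, also called lower there on 1 and 0 reads, lost its call without the second CBNE library (-0.61) or the first CE library (-0.95).

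In PE against CE, 0 genes were called higher (2 at an unadjusted p under 0.05) and 1 lower on day 0, 3 and 1 on day 3, and 2 and 1 on day 5, where 8.09%, 25.3% and 21.4% of genes were called higher, 26.8%, 8.47% and 6.21% lower and 34.9%, 33.7% and 27.6% in all. The fit on reads was not run for CBNE and PE. NKD1 stood at 29.5 and 33.9 TPM in PE on day 5, against 14.8 and 14.8 TPM in CE (1.05 ± 0.25, adjusted p = 0.00148). DKK1 stood at 22.9 and 29.7 TPM in PE on day 5, against 75.9 and 75.5 TPM in CE (-1.50 ± 0.46, adjusted p = 0.0117), a call lost without the first or second CE library (-1.50 and -1.51) or the first PE library (-1.32). The DKK1 call is also lost with a pseudocount of 0.1 (adjusted p = 0.277), with quality weights (adjusted p = 0.0596) and with totals without mitochondrial and structured RNA (adjusted p = 0.133). The NKD1 call is lost with a common median (0.16) and without the second PE library (0.95), and the DKK1 call of day 3, on 0 and 2 PE reads, without the first or second CE library (-1.17 and -1.39) or the first PE library (-0.14). SP5 stood at 120.0 and 117.3 TPM in PE on that day, also below both CE libraries, and was not called (-0.94 ± 1.20, adjusted p = 0.597). Shifted to a common median, PE had 2 higher and 0 lower on day 0, 0 and 2 on day 3, and 0 and 2 on day 5, with 4411 and 4117 of all genes on day 0, 2065 and 6176 on day 3, and 1562 and 5486 on day 5, against 2002 and 6635, 6249 and 2094, and 5285 and 1535 on the deposited scale. With totals without mitochondrial and structured RNA they were 3649 and 4572, 7841 and 1375, and 7366 and 780.

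In polyA RNA of day 0, where length is counted over exons, 5 of the 9 genes passed the filter. WNT5A was called higher in the nucleus, at 9.30 and 8.72 TPM in nucleus, against 3.01 and 3.12 TPM in cytoplasm (1.2995 ± 0.12, adjusted p = 0.000186). It was 1 of 5 called higher, with 0 lower (0 also at an unadjusted p under 0.05 and on reads), where 30% of 16667 genes were called higher and 6.22% lower (36.3% in all). Shifted to a common median the count was 0 and the WNT5A difference 0.74, with 2397 of all genes higher and 2809 lower, against 5005 and 1037 on the deposited scale, where the median over all genes was 0.50.

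AXIN2 was the most abundant of the 9 in polyA RNA, at 49.9 and 47.4 TPM in nucleus, against 23.4 and 25.4 TPM in cytoplasm, a difference of 0.97 ± 0.07 (adjusted p = 6.78e-05) just under the size needed for a call, which it passed without the second nucleus library (1.01) or the second cytoplasm library (1.03). WNT3 stood at 1.89 and 1.74 TPM in nucleus, against 1.28 and 1.17 TPM in cytoplasm (0.34 ± 0.17, adjusted p = 0.120), NKD1 differed by 0.27 ± 0.13 (adjusted p = 0.100) and WNT5B by 0.07 ± 0.20 (adjusted p = 0.763). RSPO3, DKK1, LEF1 and SP5 were under the filter, with 1 to 15 reads in each polyA library. The nucleus and cytoplasm of these libraries are not the SNE and CE of total RNA, and the tables were scaled separately.

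Likeness was read across the 12 group means of INPUT, CE, ME and SNE. The 9 genes fell into more than 1 profile. In log2(TPM + 1) the pairs with the highest Pearson r were WNT3 with DKK1 (0.97) and NKD1 with LEF1 (0.96). DKK1 with LEF1 had 0.62, and AXIN2 had values between -0.48 and 0.27 with the other 8. Among 18518 genes at a mean of 1 TPM or more, the closest profiles were those of EOMES for SP5 (0.991), FOXC1 for DKK1 (0.991), COLEC12 for LEF1 (0.997), SPNS2 for WNT5A (0.989), ATOH8 for NKD1 (0.983), LINC00379 for RSPO3 (0.993), CLIP1 for WNT5B (0.971), SCPEP1 for AXIN2 (0.977) and DKK4 for WNT3 (0.978). The 12 means share libraries, days and extract scale, and these values are a description.

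The antisense genes named after members were near the limit of detection. LEF1-AS1, which overlaps 1.18% of the LEF1 span, held 19 and 30 reads in SNE on day 5 (0.381 and 0.610 TPM), against 12 and 15 reads in CE (0.109 and 0.122 TPM). WNT5A-AS1 held 0 to 6 reads in every total RNA library, and WNT5A held 1385 and 1407 reads in the SNE libraries of day 5.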

How the data were processed

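Total RNA of H1 cells was sequenced in 36 libraries (18 groups of 2) and polyA RNA in 4. The authors' deposited tables hold TPM values, 1 per gene and library, scaled by gene length and library total; no header names the unit, which the values gave (sums per column run, in total RNA, from 989513 to 998559, and are 1000000 in polyA RNA). HISAT2 2.0.5, GATK, featureCounts 1.6.2, Salmon 1.3.0 and hg38 are named per the submitters' processing notes, without saying which made which table; how reads in overlapping genes were assigned is not given in the sources used here. Genes were matched to GENCODE 29 (57939 of 57939 and 58216 of 58336 IDs).

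Reads were recovered from the values (98.6% to 98.9% whole within 0.05 over gene span in total RNA, 97.4% to 97.7% over exons in polyA RNA). Intervals and floors of 3 reads cover counting error only.

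Differences were tested by limma 3.58.1 (R 4.3.3) on log2(TPM + 1), which understates the change of low genes, with a mean per group, trended robust variance and Benjamini-Hochberg adjustment over all genes with at least 1 TPM in at least 2 libraries. INPUT, ME, SNE and CE shared a fit of 24 libraries, CBNE and PE a fit of all 36, and polyA RNA its own. The procedure was tested on simulated data with the same spread beyond counting error in every group. The simulation held neither the unequal spread of the real groups nor the scaling shifts between extracts. It cannot show how the calls hold under these. Python 3.11.15 with pandas 2.3.3 did the rest.

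Alternatives were a pseudocount of 0.1, no filter, a common median, totals without mitochondrial and structured RNA, quality weights by extract, all 36 libraries, a replicate block and leaving out each library. Fits by limma voom on recovered reads, on the deposited scale and in CPM, were added after seeing the data, as were pathway list counts under other scalings; the voom fits were not run for CBNE and PE, where voom's prior is large beside the depth. The 9 genes, the pathway lists and the markers were chosen with earlier results of these data known. Named pathway genes are among the 4 largest called differences in each direction per comparison, and named alike genes are the first of 3 by Pearson r among genes with a mean of at least 1 TPM.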

Additional observations from a re-analysis of the deposited data

Results flagged for a closer look

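Of the 27 tests of whether a gene's SNE to CE difference changed between days, 5 passed. Between days 5 and 0 the difference moved by -2.20 for DKK1 and -1.50 for SP5, and between days 5 and 3 by -2.11 for DKK1, -1.03 for WNT5A and 1.23 for LEF1 (limma, log2 scale, adjusted p in the text above). On recovered reads the changes of DKK1 between days 5 and 3 (-1.96) and of WNT5A (-1.09) were called, and those between days 5 and 0 (-1.31 for DKK1, -0.57 for SP5) and of LEF1 (0.66) were not. With all 36 libraries in the fit the calls of SP5, of WNT5A and of DKK1 between days 5 and 3 were lost (adjusted p = 0.738, 0.506 and 0.0766). With a pseudocount of 0.1 those of DKK1 between days 5 and 3 (adjusted p = 0.196) and between days 5 and 0 (adjusted p = 0.561) and of LEF1 (0.74) were lost, and the SP5 change was 0.35. On day 5 the SNE libraries carry a later block of library numbers than the CE libraries, and the block and the change cannot be told apart.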

How the results depend on the processing

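The 7 calls of day 5 against day 0 in INPUT and the 6 of day 5 against day 3 were within 1.5 times in every alternative run, although with all 36 libraries in the fit the SP5 call of day 5 against day 3 is lost (2.56, adjusted p = 0.236). Counts of genes called among the 9 moved elsewhere. With all 36 libraries in the fit they were 2 for INPUT day 3 against day 0 (4 as reported), 1, 0 and 1 for ME against CE on days 0, 3 and 5 (2, 1 and 2), and 1 for the change in SNE against CE between days 5 and 0 and 1 between days 5 and 3 (2 and 3). With a common median they were 0 for ME on day 0, 4 for the change between days 5 and 0, 4 for CBNE on day 0 (2), 2 for PE on days 0 and 3 (1 and 4) and 0 for polyA RNA (1). With a pseudocount of 0.1 they were 0 for ME on day 3, 5 for SNE on day 0 (3), 0 and 1 for the changes between days 5 and 0 and days 5 and 3, and 4 for CBNE on day 0, and the SP5 change between days 5 and 0 was 0.35. With totals without mitochondrial and structured RNA the count for ME on day 3 was 2, AXIN2 in ME on day 0 was 0.19 and WNT5B in polyA RNA -0.0020. On recovered reads the counts were 7 for INPUT day 3 against day 0, 2 and 4 for ME on days 3 and 5, 5 for SNE on day 0 and 0 for the change between days 5 and 0. In CPM they were 1 for ME on day 0, 5 and 3 for SNE on days 0 and 3 (3 and 5) and 5 for the change between days 5 and 3.

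Signs turned under the common median in SNE against CE for AXIN2 (-0.71, -0.54 and -1.21 on days 0, 3 and 5), RSPO3 (-0.81, -1.002 and -0.66), WNT5A (-0.20 and -1.22 on days 0 and 5), NKD1 (-0.39) and WNT5B (-0.13) on day 5, and in polyA RNA for NKD1 (-0.28), WNT3 (-0.22) and WNT5B (-0.49). In CPM they turned for AXIN2 (-1.07, -0.55 and -1.51), WNT5A (-0.47, -0.037 and -1.52), NKD1 (-0.082 and -0.65 on days 0 and 5), RSPO3 (-0.42 and -0.67 on those days) and WNT5B on day 5 (-0.25), for NKD1 (-0.052) and WNT5B (-0.25) in polyA RNA, and for NKD1 in INPUT day 3 against day 0 (-0.059). The cause was not tested.

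Leaving out 1 library at a time gave 1 to 4 calls for CBNE on day 0, 1 to 2 and 0 to 1 for ME on days 0 and 3, 1 to 3 for the change between days 5 and 0 and 1 to 2 in polyA RNA. WNT5B ranged from -0.0039 to 0.15 in INPUT day 5 against day 3 and from -0.10 to 0.24 in polyA RNA. A lone library left in a group is assumed to vary like the others.

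Counts over all genes moved by over 1.5 times as follows. With a pseudocount of 0.1 they were 3685 for INPUT day 3 against day 0 (2442 as reported) and 2615 for day 5 against day 3 (1605). In CPM and on recovered reads they were 4552 and 4373 for day 3 against day 0, 6006 and 6023 for day 5 against day 0 (3938), 2891 and 3019 for day 5 against day 3, 4759 and 4697 for ME on day 3 (2902) and 5525 and 5499 for ME on day 5 (3060). With new totals ME had 7868 on day 0 (5224), 5564 on day 3 and 5714 on day 5. With 36 libraries ME had 1934 and 2002 on days 3 and 5, and the change 930 between days 3 and 0 (1757) and 618 between days 5 and 3 (1152).

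Replicate numbers are shared across groups, and no shared deviation of libraries of like replicate number was seen. The correlation of deviations ran from -0.0445 to 0.0592 over 66 pairs of groups and was 0.0284 in polyA RNA. This cannot show that the samples were unpaired, since counting error alone also gives values near 0. The later block of library numbers on day 5 was not tested by it. With a replicate block, none of the 127 results changed class. Single genes of the 9 kept their sign and stayed on their side of the threshold, and counts stayed within 1.5 times. INPUT day 5 against day 0 had 7 calls among the 9 and 3944 over all genes, against 3938 without the block. Depth limits SP5 and DKK1 on day 0 and nearly all of the 9 genes in CBNE.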
